A study of Mus musculus with 12 samples.

Results

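The wildtype aortic valve of the mouse at postnatal day 10 is described here from 4 of the 12 RNA libraries of the series, namely those whose genotype label is wildtype. Each library was a pool of 3 valves, so 12 valves stand behind the values and the pool is the unit of replication. The other 8 libraries came from valves labelled Notch1+/-;Gata5+/- or Notch1+/-;Gata5-/- and enter no value below. No treatment or transgene is named for the wildtype mice, and the sources used here give neither their strain nor their sex. The question is how abundant each gene's RNA was in the normal valve and how far the 4 pools, numbered 1 to 4 by their replicate labels, differed. No groups were compared, so every value is a level with its spread and none carries a p-value.

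The aortic valve lets blood leave the left ventricle and closes against its return. Its leaflets are thin sheets of collagen, proteoglycan and elastic fibre, made and remodelled by interstitial cells and covered by endothelium, and they are anchored to the aortic wall on one side and to heart muscle on the other. After birth the cushion-like leaflets thin and their matrix becomes layered. Resident macrophages and pigment cells are known in mouse heart valves. A dissected valve can also carry smooth muscle of the aortic root, cardiomyocytes, fat, nerve and blood.

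The libraries held 19206388, 20899533, 19755688 and 21450396 counts in pools 1 to 4. Of the 20620 genes in the deposited table, 15904 had a count in every pool and 184 were at 0 in all 4. The unit CPM is the count per 1000000 counts of the library, scaled by the trimmed mean of M-values (TMM), and serves to compare 1 gene across pools. To compare levels of different genes, TPM or ratios per kilobase are used, and TPM divides by exon length first. Shares of counts and ranks by CPM are not divided by length, so long genes weigh more in them. Pool 2 stood apart: 3208 genes were at 0 there, against 1504 in pool 1, 1729 in pool 3 and 2056 in pool 4. Genes at 0 in pool 2 alone that had at least 10 counts in each of the other pools numbered 704, against 101 to 273 for the other pools, and the highest mean level among them was 9.46 CPM. Where a mean depends strongly on pool 2, it is also given below without that pool, or the value of each pool is printed. Errors are SDs over the 4 pools.

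Counts were concentrated in few genes. The mean level reached 1 CPM for 16704 genes (81.0% of those listed), 10 CPM for 9764, 100 CPM for 1671 and 1000 CPM for 56. The 10 genes with the most counts took 24.1 ± 0.769% of each library, and the 100 with the most took 36.8 ± 0.204%. Protein-coding genes held 88.7 ± 2.34% of the counts. Long intergenic RNAs, led by the nuclear RNA Malat1 at 49257 ± 10967 CPM, held 5.64 ± 1.28%. Malat1 was at 57649, 48695, 56733 and 33953 CPM in pools 1 to 4, lowest in pool 4. Short structural RNAs were also abundant although poly-A selection is described: Rn7sk, which binds a transcription elongation factor, was at 10142 ± 951.6 CPM, the RNase P RNA Rpph1 at 7431 ± 1072 and the RNase MRP RNA Rmrp at 2918 ± 615.9. These 3 with Malat1 and Neat1, another nuclear RNA, took 8.16%, 7.45%, 8.0% and 4.95% of pools 1 to 4. The 81 genes of cytoplasmic ribosomal proteins took 1.45 ± 0.0793%.

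**Figure D1:**
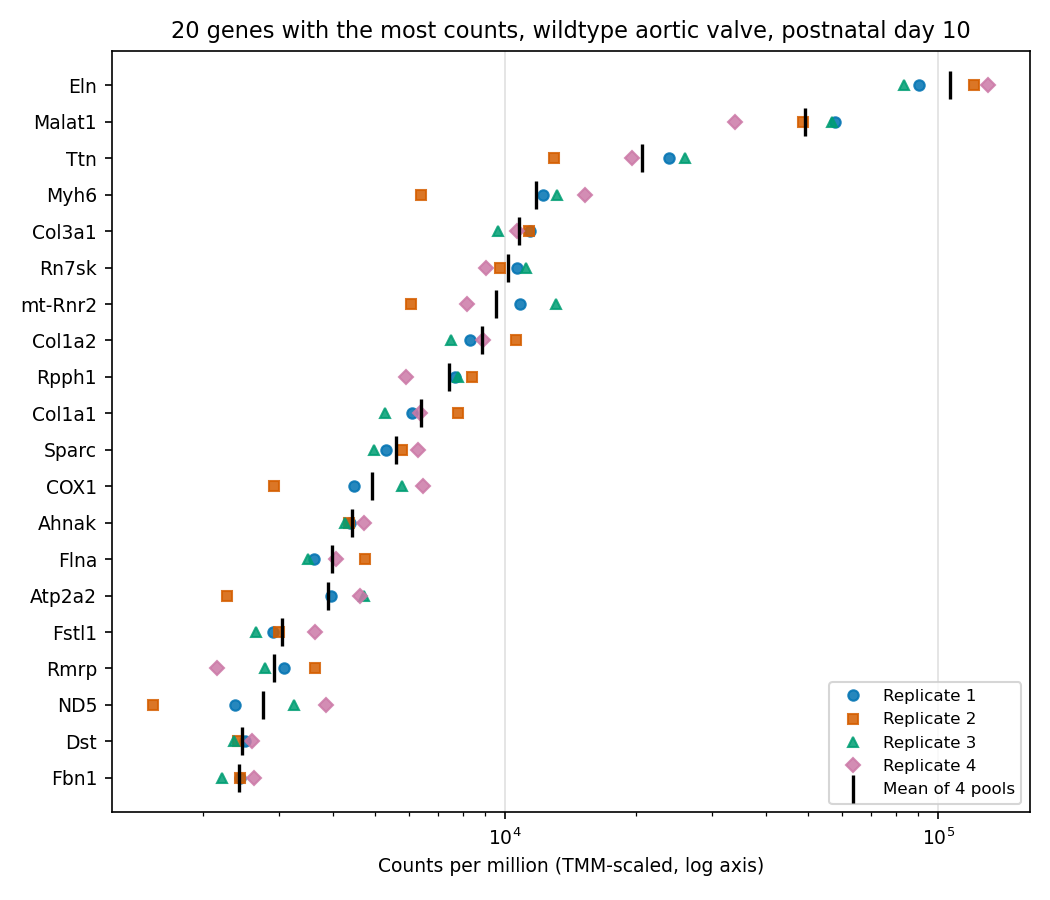
Levels of the 20 genes with the highest mean CPM, one row a gene, with a log axis of TMM-scaled CPM; each symbol is 1 pool and the black bar is the mean of 4 pools. Eln lies to the right of every other gene in all 4 pools, and for Ttn, Myh6, COX1, Atp2a2 and ND5 pool 2 is the leftmost symbol.

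Eln, the gene of tropoelastin from which elastic fibres are built, had the most counts in every pool. It held 9.18%, 12.5%, 8.36% and 12.4% of the counts of pools 1 to 4. Its level was 90387, 120744, 83580 and 130325 CPM, or 106259 ± 22768 CPM over the 4 pools. Pools 2 and 4 were the high ones and pools 1 and 3 the low ones, with a coefficient of variation (CV, the SD over the mean) of 0.214. In TPM its mean was 53281 ± 12226, second to Rpph1 (94553 ± 15794) among the 19975 genes with an exon length. Rn7sk had no length and so no TPM. In each pool Eln alone exceeded the summed share of the other 105 genes of all matrix lists, which was 6.48%, 7.45%, 5.80% and 6.64%.

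The partners of elastin in the fibre were far below it. The other 19 genes of the elastic fibre list held 0.721 ± 0.0735% of the counts together. Fbn1, which encodes the fibrillin of the microfibril scaffold, was at 2443, 2443, 2214 and 2623 CPM, a narrow range with a CV of 0.0690. Per kilobase Eln exceeded Fbn1 64.4-fold (log2 ratio 6.01 ± 0.24), or 134-fold with the longest transcript as length, and Fbn1 exceeded Fbn2, the fibrillin better known from fetal tissue, 11.7-fold (log2 ratio 3.54 ± 0.13). Next in TPM after Fbn1 (812.5 ± 71.9) came the microfibril-associated Mfap4 (662.8 ± 97.3), the cross-linking enzyme Lox (447.5 ± 91.4), the latent TGF-beta binding protein Ltbp4 (446 ± 71.7) and fibulin-5, Fbln5 (375.5 ± 81.1). The ranges of direct neighbours in this order overlapped from Fbn1 to Loxl1, although Fbn1 lay above Lox and Ltbp4 in every pool without overlap. Lox stood at 473.0, 578.1, 417.4 and 638.6 CPM and Fbln5 at 590.6, 653.4, 497.8 and 817.9 CPM, with the same high pools (2 and 4) as Eln. Over the 20 genes of the list, 9 were highest in pool 2, 8 in pool 4 and 11 lowest in pool 3. Over all 16704 genes with a mean of at least 1 CPM, 29.7% were highest in pool 2, 26.2% in pool 4 and 22.8% lowest in pool 3.

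Fibrillar and type VI collagens, the tensile part of the leaflet, held 3.11%, 3.64%, 2.69% and 2.97% of the counts. Col3a1, the chain of type III collagen, was at 11426, 11371, 9630 and 10644 CPM and varied little (CV 0.0778). The type I chains Col1a2 (8302, 10592, 7494 and 8901 CPM) and Col1a1 (6087, 7791, 5290 and 6371 CPM) were both highest in pool 2 and lowest in pool 3. In TPM the order was Col3a1 (4453 ± 505.3), Col1a1 (3958 ± 794.5) and Col1a2 (2887 ± 534.6), with overlapping ranges between neighbours. The order of the type I chains depends on the length used: per kilobase of merged exons Col1a1 exceeded Col1a2 1.37-fold, and per kilobase of the longest transcript the ratio was 0.652. A clear step followed, since Col6a1 (574.2 ± 95.3 TPM), Col5a1 (531.0 ± 79.6 TPM) and Col5a2 (529.3 ± 55.3 TPM) lay below every pool's value of the first 3. Cartilage-type chains were counted too, Col11a2 at 49.8 ± 4.49 TPM and Col2a1 at 34.2 ± 13.3 TPM. Col2a1 was at 116.9 CPM in pool 2 and between 58.71 and 75.58 CPM in the other pools, and without pool 2 its mean was 27.7 ± 3.46 TPM.

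Basement membrane genes held 0.975 ± 0.0776% of the counts. Its leading members in TPM were the type IV collagen chain Col4a1 (862.3 ± 166.6), Col15a1 (748.5 ± 69.3) and Col4a2 (567 ± 135), ahead of perlecan, Hspg2 (464.8 ± 81.5). All 4 pools had more Col4a1 than Col4a2 per kilobase, 1.53-fold on average. Among the other collagens Col14a1, whose product binds collagen fibrils, stood alone at 877.6 ± 134.8 TPM, with Col16a1 next at 100 ± 21.8 TPM and no overlap between their ranges.

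The proteoglycan list held 0.321 ± 0.0203% of the counts, and the small leucine-rich proteoglycans led it. Lumican, Lum, was the steadiest member named here at 607.7, 627.9, 620.3 and 599.3 TPM. Biglycan, Bgn, ranged more widely (480.2, 655.1, 446.6 and 691.5 TPM) with the high pools 2 and 4 again, and decorin, Dcn, was at 385.5, 372.8, 441.5 and 334.9 TPM with pool 3 highest. The large hyaluronan-binding proteoglycans were lower, versican (Vcan) at 158.7 ± 15.7 TPM and aggrecan (Acan) at 100.3 ± 33.6 TPM. Acan separated the pools into 143.2 and 124.4 CPM in pools 1 and 3 and 231.6 and 236.9 CPM in pools 2 and 4.

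Matricellular and adhesive glycoproteins held 1.24 ± 0.111% of the counts, led by Sparc, a collagen-binding protein of remodelling matrix. Sparc was at 5305, 5763, 4970 and 6297 CPM (CV 0.103), and in TPM (5976 ± 705.2) it stood above Col3a1. It exceeded periostin, Postn, 6.28-fold per kilobase, and this ratio was nearly fixed across pools (log2 ratio 2.60, 2.67, 2.66 and 2.67). Postn was at 951.1 ± 106.7 TPM, the mineralization inhibitor Mgp at 820.2 ± 79.2 TPM and fibronectin, Fn1, at 590.5 ± 106.6 TPM. Tenascin-C, Tnc, was lower at 87.8 ± 21.2 TPM. Among proteases and their inhibitors the inhibitors Timp2 (453.0 ± 49.4 TPM) and Timp3 (289.0 ± 25.3 TPM) and the gelatinase Mmp2 (362.0 ± 31.6 TPM) led. Mmp3, a stromelysin, was at 3.334, 0, 1.114 and 0.7834 CPM.

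**Figure D2:**
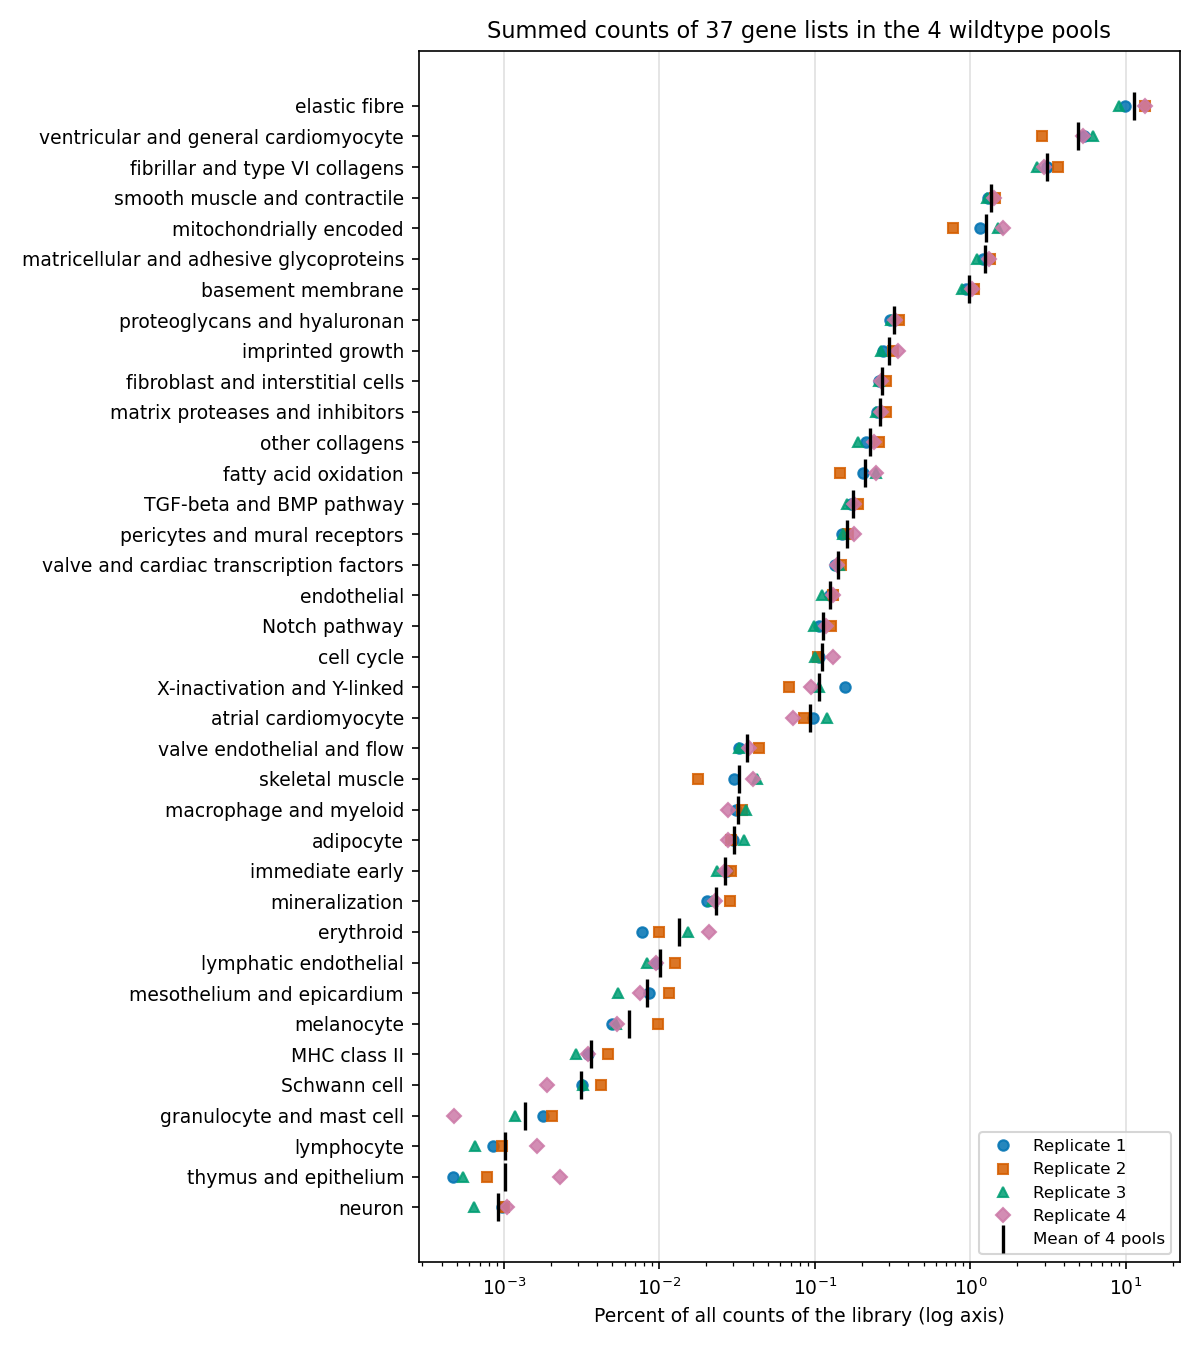
Percent of each library's counts in 37 gene lists, on a log axis; each symbol is 1 pool and the black bar is the mean. The elastic fibre list is at the top with 8.99% to 13.3% of the counts, and the endothelial list lies between 0.112% and 0.131%.

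Heart muscle genes also took a large share. Members of the ventricular and general cardiomyocyte list held 5.41%, 2.91%, 6.17% and 5.31% of the counts in pools 1 to 4. Pool 2 was the low one in this list: 23 of the 24 members had their lowest CPM there, against 32.8% of all genes with a mean of at least 1 CPM. The exception was Myh7, lowest in pool 3. The 24 genes are transcribed in the same cells, so they are not 24 separate observations. Members of the other lists are likewise not taken as separate observations. The mean share was 4.95 ± 1.41% with pool 2 and 5.63% without it, and the CV of the summed CPM was 0.298 with it and 0.0759 without it. In bulk RNA, fewer cells of a type and less RNA per cell cannot be told apart.

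Titin, the spring of the sarcomere, had the most counts of the list: Ttn was at 23897, 12994, 26067 and 19666 CPM, but its transcript is very long and its mean TPM was 711.5 ± 181.6. Ttn alone held 2.06 ± 0.57% of all counts, a large part of the share of the list. In TPM the cardiac myosin heavy chain Myh6 led (7468, 4026, 7596 and 9044 in pools 1 to 4), followed by the troponin C gene Tnnc1 (3061 ± 1254), the calcium pump gene Atp2a2 (2571 ± 673.3), myoglobin, Mb (2500 ± 1117), and Fabp3 (2325 ± 1003). The ranges of each pair of neighbours in this order overlapped. Without pool 2 the means were 8036 ± 875 TPM for Myh6, 3615 ± 717 for Tnnc1, 2898 ± 191 for Atp2a2, 3015 ± 530 for Mb, 2782 ± 508 for Fabp3 and 791.4 ± 106 for Ttn (SD over 3 pools). In both pairs compared, the gene of the adult-type contractile protein exceeded its fetal-type counterpart in every pool. Myh6 was 92.7-fold above Myh7 per kilobase (log2 ratio 7.03, 6.01, 7.18 and 5.92), and the cardiac troponin I gene Tnni3 was 16.0-fold above Tnni1 (log2 ratio 4.17, 3.51, 4.73 and 3.58). Myh7 itself was at 119.9, 126.9 and 116.4 CPM in pools 1 to 3 and at 324.0 CPM in pool 4. The natriuretic peptide gene Nppb was at 41.34, 26.91, 66.67 and 71.39 CPM.

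Several genes of the atrial list, though not all, followed another pattern over the pools. Of the 7 members with a mean of at least 1 CPM, 4 were highest in pool 3 and 4 lowest in pool 4. Over all genes at that level, 22.9% were highest in pool 3 and 25.4% lowest in pool 4. Pools 1, 2 and 3 were each the lowest for 1 member. Stard10 was at 21.1 ± 5.96 TPM and Kcna5 at 17.4 ± 3.92 TPM. The atrial myosin light chains Myl7 (147.0, 36.53, 200.2 and 35.70 CPM) and Myl4 (184.4, 76.99, 316.9 and 38.44 CPM) were high in pools 1 and 3 and low in pools 2 and 4. Sarcolipin, Sln, a small regulator of the calcium pump, was at 26.11, 11.98, 74.11 and 6.855 CPM, and its CV of 1.03 was among the 10 highest of named genes with a mean of at least 10 CPM. The limb and atrial transcription factor Tbx5, which belongs to another list, was at 20.26, 4.208, 29.87 and 5.141 CPM, also high in pools 1 and 3. The atrial peptide gene Nppa had the same high pools with smaller differences, 65.34, 50.50, 63.43 and 47.45 CPM. Dkk3, placed in this list but not a muscle structural gene, was at 562.6 ± 66.1 CPM with pool 2 highest. Bmp10 was at 10, 0, 35 and 0 counts. Genes of skeletal muscle were low: the fast troponin T gene Tnnt3 was at 8.05 ± 2.55 TPM, Tnni2 at 0.946 ± 1.10 TPM and Myh8 at 0.272 ± 0.0965 TPM, while Ckm and Acta1 of that list are also made in the heart.

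Mitochondrial genes followed the cardiomyocyte list in pool 2. The 7 matched genes encoded in mitochondrial DNA held 1.15%, 0.771%, 1.5% and 1.63% of the counts, and all 7 were lowest in pool 2 and highest in pool 4. COX1, a subunit of cytochrome oxidase, was at 4484, 2929, 5778 and 6458 CPM. Of 13 nuclear genes of fatty acid oxidation, 12 were lowest in pool 2. Over all genes with a mean of at least 1 CPM, 32.8% were lowest in pool 2 and 26.2% highest in pool 4. Acadl, an acyl-CoA dehydrogenase, was at 205.0, 149.4, 235.5 and 272.0 CPM. How much of this spread goes with the heart muscle content of the pools was not tested.

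Smooth muscle and contractile genes held 1.30%, 1.44%, 1.28% and 1.42% of the counts, a much narrower range than heart muscle. That range is of a sum whose members moved in opposite directions. In pool 2, 7 of the 15 were highest and 3 lowest, against 29.7% and 32.8% of all genes with a mean of at least 1 CPM. Tpm1 was at 1460 ± 460 TPM with pool 2 and 1678 ± 181 TPM without it. Des was at 294 ± 104 TPM with pool 2 and 338.5 ± 66.4 TPM without it. Smooth muscle actin, Acta2, led in TPM (2402, 2954, 2023 and 3092), followed by Tagln (2420 ± 357.3) and the actin cross-linker Flna (1721 ± 300.8), with overlapping ranges. The smooth muscle myosin Myh11 was at 2196, 2581, 1861 and 2624 CPM. Myh6 exceeded Myh11 5.52-fold per kilobase on average. Myocd, the cofactor of serum response factor in smooth and heart muscle, was at 108.2, 93.55, 104.3 and 116.8 CPM. Of the 15 members, 10 were lowest in pool 3, against 22.8% of all genes with a mean of at least 1 CPM. The mural cell gene Rgs5 was at 524.0 ± 97.4 TPM and the platelet-derived growth factor receptor Pdgfrb at 159 ± 28.1 TPM.

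Serum response factor is known to bind the CArG box in many muscle promoters, and the stretches below are shown because they put a sequence beside the muscle genes measured here. The box was searched on both strands in the 250 bases before each start site in a RefSeq promoter table of build GRCm38.p6, an older build than the authors' GRCm39. It was found in 4 of 30 promoters of 22 matched ventricular list genes (13.3%), 1 of 6 atrial list promoters, 1 of 11 smooth muscle list promoters and none of 10 for fibrillar and type VI collagens, 22 for elastic fibre genes and 14 for endothelial genes. It occurred in 482 of all 32851 promoters (1.47%). A match is a description of the letters and no evidence of binding. The following 100-base stretches are written 5′ to 3′ on the gene's strand with the CArG box in capitals. They come from chr2:114052876-114052975 (minus strand) for Actc1, chr14:34588682-34588781 (minus) for Ldb3, chr9:110763548-110763647 (plus) for Myl3, chr11:5898789-5898888 (minus) for Myl7 and chr2:156775258-156775357 (plus) for Myl9.
Actc1: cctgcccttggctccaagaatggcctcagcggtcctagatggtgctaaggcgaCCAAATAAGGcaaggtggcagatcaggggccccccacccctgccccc
Ldb3: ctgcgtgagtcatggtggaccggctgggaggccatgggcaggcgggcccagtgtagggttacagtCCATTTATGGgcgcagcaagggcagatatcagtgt
Myl3: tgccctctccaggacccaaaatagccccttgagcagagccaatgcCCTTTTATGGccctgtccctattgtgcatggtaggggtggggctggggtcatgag
Myl7: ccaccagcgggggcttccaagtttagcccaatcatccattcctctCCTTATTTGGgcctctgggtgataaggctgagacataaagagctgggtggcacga
Myl9: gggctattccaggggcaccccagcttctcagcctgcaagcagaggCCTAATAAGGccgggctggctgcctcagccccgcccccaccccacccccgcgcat

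The first base of the box lay 47 bases before the start site in Actc1, 35 in Ldb3, 85 in Myl3, 61 in Myl7 and 161 in Myl9, and the same Ldb3 box was counted again for a second start site of that gene. Levels of the 5 genes did not follow a common pattern over the pools. Cardiac actin, Actc1, was at 794.0, 380.4, 1037 and 1073 CPM and the ventricular light chain Myl3 at 963.9, 512.2, 1370 and 1342 CPM, both lowest in pool 2. The Z-disc gene Ldb3 was at 213.6, 100.2, 233.1 and 208.8 CPM, and pool 2 was again the lowest. The smooth muscle light chain Myl9 was at 167.7, 227.9, 180.3 and 267.5 CPM, with pools 2 and 4 high, and Myl7 had pools 1 and 3 high, as given above.

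**Figure D3:**
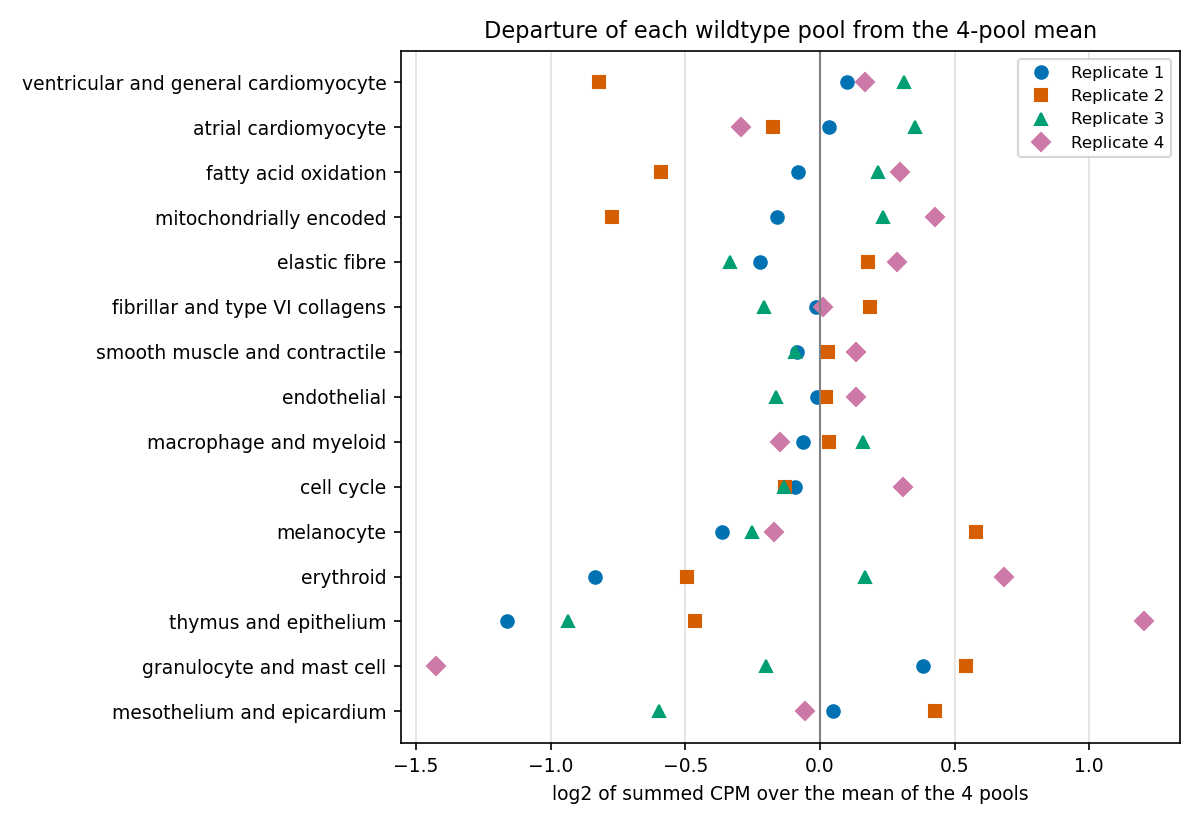
Summed CPM of 15 gene lists in each pool, as log2 of the value over the mean of the 4 pools; 0 is the mean. Pool 2 lies at the left for the ventricular, fatty acid oxidation and mitochondrially encoded lists and at the right for melanocyte genes, and pool 4 lies at the right for thymus and epithelium, erythroid and cell cycle genes.

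Interstitial cell genes held 0.268 ± 0.0132% of the counts. Their summed CPM, much of it from Vim, had a CV of 0.0462, but the median CV of the members was 0.183 and that of Clec3b, at 11.59, 1.850, 7.593 and 12.39 CPM, was 0.577. The intermediate filament gene Vim led at 1037, 1337, 895.2 and 1245 TPM, then dermatopontin, Dpt (675.9 ± 44.0 TPM), and gelsolin, Gsn (424.3 ± 79.2 TPM). Pdgfra, a receptor that marks fibroblasts, was at 265.0, 237.0, 224.2 and 216.5 CPM. These genes are not confined to interstitial cells: Vim is also made by endothelium and smooth muscle.

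The endothelial list held 0.126%, 0.131%, 0.112% and 0.131% of the counts, all 16 members having a mean of at least 1 CPM. The junction gene Pecam1 (131.8 ± 12.7 TPM), the secreted Egfl7 (116.9 ± 3.98 TPM) and the angiopoietin receptor Tek (115.1 ± 20.1 TPM) led, with overlapping ranges. Pecam1 was at 199.7, 204.8, 183.2 and 222.2 CPM and exceeded the cadherin gene Cdh5 1.36-fold per kilobase, or 2.34-fold with the longest transcript. Of the 16 members 9 were lowest in pool 3, against 22.8% of all genes with a mean of at least 1 CPM. Genes of valve endothelium and of the response to flow followed, with no clear step below the endothelial list: Nos3 had a mean of 70.8 TPM and Klf2 of 56.5 TPM, against 68.0 TPM for the endothelial factor Erg. The nitric oxide synthase gene Nos3 was at 60.98, 92.02, 57.76 and 76.73 CPM, the flow-responsive factor Klf2 at 22.00, 40.51, 18.93 and 20.61 CPM and its relative Klf4 at 29.39, 31.81, 38.93 and 47.84 CPM. Klf2 was above Klf4 per kilobase in pools 1 and 2 and below it in pools 3 and 4. Wnt9b, a ligand made by valve endothelium, was at 37.96, 64.32, 32.80 and 40.35 CPM, also highest in pool 2. Nfatc1, required for valve formation in the embryo, was still counted at 22.21, 19.84, 23.59 and 30.41 CPM. Among lymphatic genes the chemokine Ccl21a was highest in TPM (87.5 ± 8.29), and Pdpn was at 8.309, 7.861, 8.859 and 16.94 CPM, with pool 4 apart.

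Immune genes were a small share. The macrophage and myeloid list held 0.0312%, 0.0340%, 0.0359% and 0.0276% of the counts, with all 18 members at a mean of at least 1 CPM. Cbr2, a carbonyl reductase of resident macrophages, was at 51.86, 72.32, 46.12 and 40.40 CPM and led in TPM (161.9 ± 49.0), without overlap with the lysozyme gene Lyz2 (84.6 ± 20.2 TPM). The complement genes C1qb (75.8 ± 19 TPM) and C1qa (62.3 ± 18.0 TPM) and the mannose receptor gene Mrc1 (40.4 ± 7.15 TPM) came next. Antigen presentation genes of MHC class II were lower, Cd74 at 18.7 ± 4.94 TPM and H2-Ab1 at 12.3 ± 6.58 TPM. Lymphocyte genes were low: Lck was at 3.436, 2.358, 0.9618 and 6.414 CPM, and the B cell gene Ms4a1 had no count in any pool, where 0 counts allow up to 3 counts, or 0.139 to 0.154 CPM. Mast cell protease genes were counted in every pool, Mcpt4 at 116, 161, 95 and 28 counts, Cma1 at 69, 58, 84 and 36 counts and Tpsb2 at 132, 123, 51 and 32 counts, each lowest in pool 4. Cpa3, the other matched gene of that list, was lowest in pool 3. Lowest in pool 4 were thus 3 of 4 matched genes, against 25.4% of all genes with a mean of at least 1 CPM.

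Transcription factors of the valve and heart varied little as a group: the 27 listed genes held 0.140 ± 0.00538% of the counts and their summed CPM had a CV of 0.0428. Single members were less steady, with a median CV of 0.311. Meox1, a homeobox gene of mesenchyme, led in TPM at 185.4, 189.4, 196.2 and 227.1, and Tbx20, a T-box gene needed for valve development, was close behind at 168.4, 201.1, 193.2 and 187.8, so their ranges overlapped. Osr1 (129.1 ± 38.7 TPM) was high in pools 2 and 4. The chondrogenic factor Sox9 was at 15.8 ± 2.69 TPM and the osteogenic factor Runx2 at 0.719 ± 0.150 TPM, the lowest mean TPM of the 27.

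The GATA factors were far apart. Gata4, a zinc finger factor of heart development, was at 105.6, 119.6, 117.8 and 130.6 TPM, and its relative Gata6 at 65.90, 65.98, 47.74 and 63.44 TPM. Every pool had more Gata4 than Gata6, 1.96-fold per kilobase on average and 1.31-fold with the longest transcript as length. Gata5, which the series' labels name, was low: 56, 18, 46 and 19 counts in pools 1 to 4, or 2.872, 0.8324, 2.329 and 0.9303 CPM. Pools 1 and 3 were the higher ones, and the mean was 2.14 ± 1.25 TPM. Gata6 exceeded Gata5 32.3-fold per kilobase (log2 ratio 5.01 ± 0.99), or 55.6-fold with the longest transcript.

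**Figure D4:**
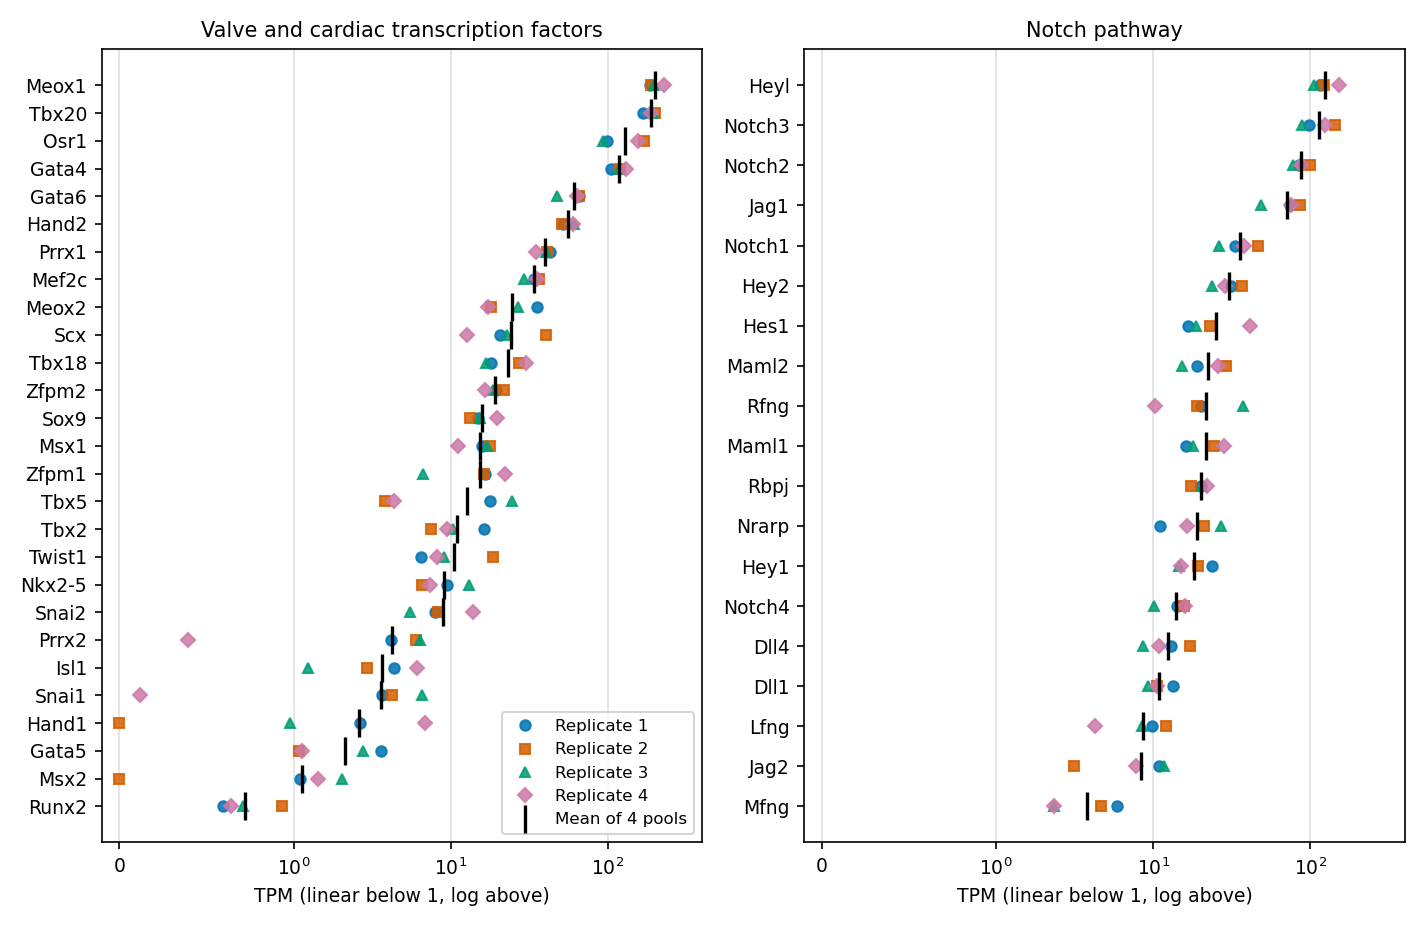
TPM of 27 transcription factors (left) and 19 genes of the Notch pathway (right) in the 4 pools, ordered by mean; the axis is linear below 1 and logarithmic above. Meox1 and Tbx20 lead on the left with Gata5 near the bottom, and Heyl, Notch3 and Notch2 lead on the right.

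Notch signalling runs from membrane ligands to receptors whose released inner part joins the DNA-binding protein Rbpj and switches on genes of the Hes and Hey families. Of 20 genes listed, 19 matched a row, and they held 0.113 ± 0.0128% of the counts. Among ligands Jag1 was highest, at 73.85, 86.08, 48.61 and 75.37 TPM, and exceeded the endothelial ligand Dll4 (12.4 ± 3.65 TPM) 5.78-fold per kilobase. Among receptors Notch3, known from mural cells, was at 98.43, 143.0, 88.38 and 123.9 TPM and Notch2 at 85.25, 100.2, 77.40 and 86.98 TPM. Notch1 was lower, at 33.05, 46.77, 26.27 and 37.88 TPM (114.5, 156.9, 96.53 and 135.4 CPM), and Notch4 was at 14.0 ± 2.67 TPM. Notch3 was above Notch1 in all 4 pools, 3.16-fold per kilobase and 2.13-fold with the longest transcript. The target gene Heyl had the highest mean TPM of the list, with 114.9, 122.8, 106.0 and 152.2 TPM in pools 1 to 4, though Notch3 was above it in pool 2. It was followed among targets by Hey2 (30.2 ± 5.56 TPM) and Hes1 (25.02 ± 11.3 TPM). Of the 19 genes 11 were lowest in pool 3, against 22.8% of all genes with a mean of at least 1 CPM.

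Of the TGF-beta and BMP genes, which govern matrix production, the ligand Tgfb3 led at 157.6, 200.7, 145.1 and 194.8 TPM. It exceeded Tgfb2 2.35-fold and Tgfb1 8.17-fold per kilobase, in every pool; with the longest transcript as length the ratio to Tgfb1 was 4.17. The BMP receptor Bmpr1a was at 158.4 ± 14.7 TPM and the BMP target Id3 at 94.9 ± 23.6 TPM. In the mineralization list Sost, which encodes the Wnt antagonist sclerostin known from bone, was at 198.7, 366.0, 219.2 and 289.8 TPM. It was well above Ank, a pyrophosphate transport gene (50.9 ± 7.23 TPM), and Enpp1, whose product makes pyrophosphate (16.0 ± 3.95 TPM). The osteoblast genes were low, with Alpl at 3.21 ± 1.52 TPM and Sp7 at 66, 0, 5 and 16 counts.

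The spread between pools depended on level. The median CV was 0.519 for genes with a mean from 1 to 10 CPM, 0.194 from 10 to 100, 0.127 from 100 to 1000 and 0.149 for the 56 genes above 1000. Counting error alone would give medians of 0.121, 0.0420, 0.0173 and 0.00513 in these ranges. Over all 16704 genes with a mean of at least 1 CPM the median was 0.268, and 0.217 without pool 2. Pools 1 and 3 were most alike: 1.41% of the 9764 genes with a mean of at least 10 CPM differed between them by more than 2-fold, against 9.02% between pools 2 and 4. List medians ranged around these values, with 0.122 for fibrillar collagens, 0.134 for endothelial genes and 0.393 for ventricular genes.

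Among named genes with a mean of at least 10 CPM the least variable was Kmt2e, a chromatin regulator, at 182.2, 181.1, 180.8 and 179.1 CPM. Angptl7, a secreted protein of connective tissue, was also among the 10 steadiest at 57.70, 57.66, 58.52 and 56.55 CPM, as were the splicing regulator Mbnl1 (485.0 ± 7.57 CPM), Lztr1, Ap3d1, Ptprd, Nos1ap, Rmnd5a, Dync1i2 and Ksr1, all with a CV from 0.00715 to 0.0170. These CVs lie below the median counting error of their level range, 0.0420 from 10 to 100 CPM and 0.0173 from 100 to 1000 CPM. The 10 genes were picked as the lowest of many over 4 pools, so none is shown to be steadier than other genes. At the other end stood Ucp1, the uncoupling protein of brown fat, at 2.359, 42.08, 2.885 and 1.714 CPM. Pck1 (1.385, 40.28, 4.657 and 4.407 CPM) and Gpd1 (9.694, 63.17, 16.65 and 16.45 CPM), both of glycerol metabolism in fat, were highest in pool 2 as well. The calcium channel genes Ryr3 (12, 0.4624, 41.05 and 3.281 CPM) and Cacna1h (9.489, 2.451, 23.74 and 6.512 CPM) and Cpne5 (16.87, 0.5549, 25.72 and 5.680 CPM) were highest in pool 3 and lowest in pool 2. Ribosomal RNA varied too, with Rn18s at 0.8719, 215.8, 838.8 and 5.239 CPM and mt-Rnr1 at 1768, 596.2, 6264 and 878.9 CPM.

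**Figure D5:**
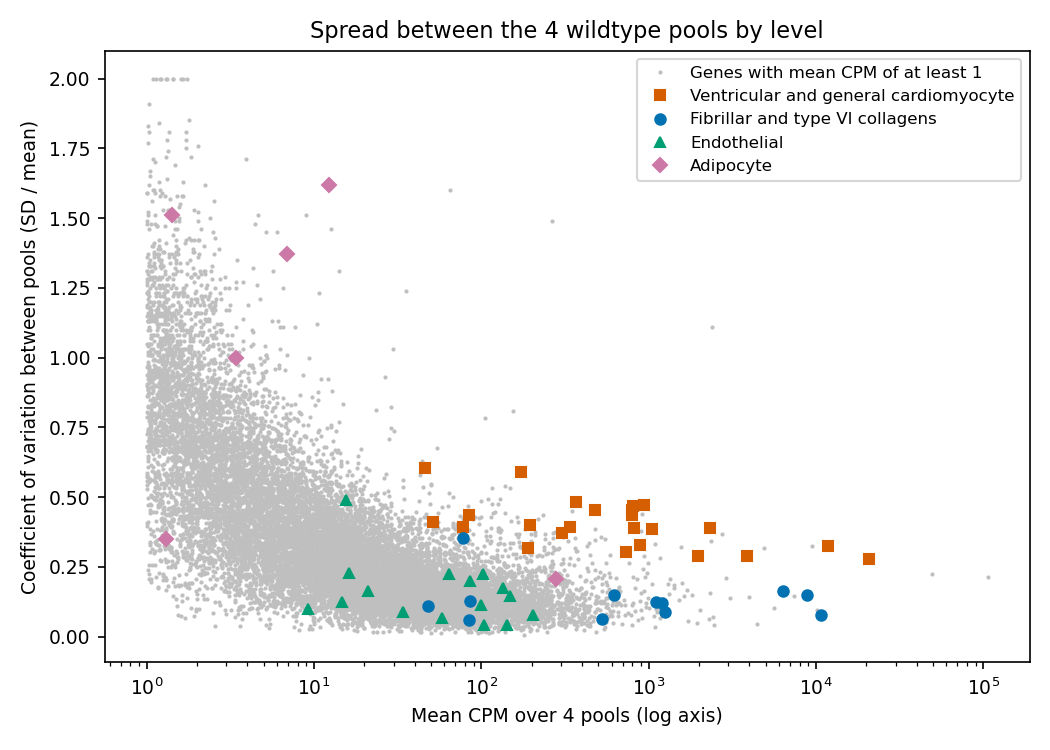
Coefficient of variation between the 4 pools against mean CPM (log axis) for 16704 genes, with members of 4 lists coloured. Ventricular genes lie above the grey cloud at their level, most fibrillar collagen and endothelial genes lie within it, and most adipocyte genes other than Fabp4 and Adipoq have values near 1 or above.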

How the data were processed

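Aortic valves were pooled by 3 for each of 4 wildtype libraries; poly-A RNA was sequenced, per the labels' protocols. The authors deposited raw counts, a whole number per gene and library. Trim Galore, STAR 2.7.10b, GRCm39 and DESeq2 1.34.0 are listed in the submitters' processing notes. The counting tool, annotation release and strand setting were not given in the sources used here, and the protocol names both directional and non-directional libraries, so reads of overlapping or antisense genes (Tsix and Xist among them) cannot be told apart. Near-identical copies such as the globin genes, and the pair of gene identifiers that carry the name Rmrp, are uncertain for the same reason.

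Only the 4 wildtype columns were used; 0 value columns were without a sample. Symbols came from a table the authors deposited (13959 genes) and from GENCODE M21 (6077 more), an annotation of the older build GRCm38 that also gave merged exon lengths; 584 genes had no symbol. CPM used TMM factors over the 4 libraries (edgeR 4.0.16, R 4.3.3). TPM used the 19975 genes with a length; the 645 without one held 1.35% of the counts. CV was SD over mean. A count of 0 allows 3 counts, or 0.139 to 0.154 CPM, which covers counting error only, as no molecular identifiers are described. The dispersion step was tested on simulated data. Alternatives were other scalings, totals without Eln or mitochondrial genes, other filters, edgeR and DESeq2 1.42.0 dispersions, the longest transcript as length, and each pool left out.

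The 37 gene lists (484 genes, of which 446 matched a row) and the genes described were chosen with earlier results of these data known. Genes were drawn for naming from the 20 genes with the highest mean CPM and from the 3 leading members of each list by TPM. Not all genes of these sets are named in the text, though the plot of the highest mean CPM shows all 20. Also named were members under the floor in every pool, Notch1 and Gata5. So were the genes with the 10 highest and 10 lowest CVs among those with a symbol and a mean of at least 10 CPM. Any other gene, and the gene pairs, were chosen after their values were seen.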

Additional observations from a re-analysis of the deposited data

Results flagged for a closer look

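In 11 of 176 results examined, 1 pool lay apart from the other 3, by Dixon's limit for a set of 4 (a gap that takes up most of the whole range). Chance alone sets about 1 in 20 groups apart. The results examined included genes named for their high CV between these pools, with Ucp1, Pck1 and Gpd1 among those flagged. Their flags follow in part from that choice, so 11 of 176 cannot be judged against the chance rate. Of the 16704 genes with a mean of at least 1 CPM, 6.2% passed the same limit. Pool 2 was the one apart for 466 of these genes, pool 4 for 266, pool 1 for 159 and pool 3 for 144.

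Pool 2 was apart in 6 results. The summed level of the melanocyte list was 94.61 CPM there, against 49.14 to 56.26 CPM in the other pools. The fat-related genes Ucp1 (42.08 CPM), Pck1 (40.28 CPM) and Gpd1 (63.17 CPM) and the flow-responsive Klf2 (40.51 CPM) were highest in that pool, and Ank was lowest there, at 34.17 CPM. Pool 4 was apart in 5 results. The summed cell cycle list was at 1377 CPM, against 1013 to 1043 CPM elsewhere, and the thymus and epithelium list at 24.09 CPM, against 4.667 to 7.584 CPM. Heyl (195.5 CPM) and the podoplanin gene Pdpn (16.94 CPM) were highest in pool 4, and Cdh19, a cadherin of Schwann cells, was lowest there at 1.175 CPM.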

How the results depend on the processing

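The wildtype levels, shares, counts of genes and ratios were recomputed under the alternatives. Of the recomputed summary values 164 stayed within the spread between pools and 16 moved beyond it. Mean levels and shares with a pool left out could hardly move beyond that spread, so their staying within it says little. Without Eln in the total, the shares became 0.809% for elastic fibre, 1.39% for matricellular genes, 0.360% for proteoglycans, 1.52% for smooth muscle, 0.140% for endothelial, 0.0360% for macrophage, 0.157% for transcription factor and 0.127% for Notch genes, 15.1% for the 10 and 29.3% for the 100 most abundant genes; Eln left both the total and, for elastic fibre and the most abundant genes, the sum. Without mitochondrially encoded genes the 100 most abundant held 35.3%. The median CV was 0.339 with no filter, 0.181 from 10 CPM up, 0.316 by edgeR, 0.337 by DESeq2, and 0.217 to 0.272 with a pool left out, lowest without replicate 2.

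Of single genes and ratios 291 values stayed, 22 moved and 4 reversed. Mean levels and mean ratios with a pool left out could again hardly move, though a ratio could reverse. With the longest transcript as length the log2 ratio of Col1a1 to Col1a2 was -0.62. With a pool left out the log2 ratio of Col5a2 to Col5a1 ran from -0.05 (without pool 1) to 0.06 and was -0.01 without pool 3, and that of Klf2 to Klf4 ran from -0.17 (without pool 2) to 0.35. The cause was not tested. For the ventricular list the CV of summed CPM was 0.0759 to 0.372 with a pool left out. No paired analysis was possible because only 1 group was described. At 19206388 to 21450396 counts a pool, a count of 0 allows a level of up to 0.139 to 0.154 CPM, and 4 pools limit the precision of every SD.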

Other observations

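Markers of pigment cells, fat, nerve, mesothelium and blood were counted in the pools, most of them at low levels. Of the melanocyte list, 6 of the 7 genes had a mean of at least 1 CPM. All 6 were highest in pool 2, against 29.7% of all genes at that level. Dct, an enzyme of melanin synthesis, was at 38.16, 59.01, 33.97 and 38.58 CPM and the melanosome gene Pmel at 3.488, 9.757, 4.758 and 6.316 CPM. The adipocyte list divided. Fabp4, a fatty acid carrier also made by capillary endothelium, was at 285.2, 203.0, 342.3 and 283.8 CPM. The lipid droplet gene Plin1 was at 1.641, 20.95, 4.505 and 0.5876 CPM. Of the 6 matched adipocyte genes 5, all but Fabp4, were highest in pool 2, against the same 29.7% of all genes. Schwann cell genes were low, with S100b at 1.693, 8.601, 1.468 and 2.889 CPM and Cnp at 7.386, 7.353, 7.897 and 7.639 CPM. The mesothelial genes Msln (27.13, 38.15, 16.25 and 20.71 CPM) and Upk3b (32.21, 36.30, 17.41 and 31.83 CPM) were lowest in pool 3. Of the 7 genes of the mesothelium and epicardium list 3 were lowest there, against 22.8% of all genes with a mean of at least 1 CPM. The others were lowest in pools 1, 2 or 4. The summed erythroid list was highest in pool 4, at 76.01, 96.18, 152.1 and 218.0 CPM in pools 1 to 4. Of its 5 members with a mean of at least 1 CPM, 4 were highest there, against 26.2% of all genes at that level. The globin gene Hbb-b1 was at 48.01, 56.97, 97.09 and 133.0 CPM, while Hbb-bt was highest in pool 2. Pool 4 also had the most Rag1, a gene of immature lymphocytes, at 2.770, 5.087, 3.746 and 14.40 CPM. The part of these cells in the levels given in the report was not tested.

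Among imprinted genes of growth, H19 had the highest mean TPM (959 ± 229). Igf2 (256 ± 80.5 TPM) and Igf2r (246 ± 39.7 TPM) came next with overlapping ranges, Igf2 being the higher in 2 of the 4 pools. Dlk1 (4.95 TPM) and Peg10 (2.90 TPM) were low. H19, an imprinted noncoding RNA of growing tissue, was at 471.0, 654.8, 468.5 and 730.0 CPM, and the growth factor gene Igf2 beside it at 291.3, 359.4, 272.2 and 525.3 CPM. H19 exceeded Igf2 3.79-fold per kilobase and did so in every pool. Cell cycle genes held 0.106%, 0.105%, 0.101% and 0.131% of the counts. Ccnd2, a cyclin of the first growth phase, was at 339.6, 320.9, 377.7 and 439.3 CPM and the proliferation marker Mki67 at 166.1, 137.7, 126.6 and 199.1 CPM. Of 18 cell cycle genes, 13 were highest in pool 4, against 26.2% of all genes with a mean of at least 1 CPM. Immediate early genes, which respond within minutes to handling and other stimuli, were led by Jun (103.8 ± 15.1 TPM) and Dusp1 (103.1 ± 10.7 TPM), and Fos was at 63, 85, 96 and 23 counts.

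The female-specific RNA Xist was at 1444, 464.2, 878.6 and 864.0 CPM and the Y-linked Ddx3y at 32.11, 77.69, 67.38 and 58.81 CPM. Both were counted in all 4 pools. Pool 1 had the most Xist and the least Ddx3y, and pool 2 the reverse. Tsix, which overlaps Xist on the other strand, was at 99.61, 1.850, 18.98 and 20.76 CPM, and without a known strand setting its reads and those of Xist cannot be told apart.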
